A study of Mus musculus with 16 samples.

Results

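The 6 mouse Iroquois genes, Irx1 to Irx6, were followed in the distal forelimb bud, in its ectoderm and in its mesoderm. They were chosen by gene symbol alone, as all genes named Irx1 to Irx6 among the 53800 genes of the deposited count table, and each symbol matched 1 gene. The libraries came from B6 mouse embryos, with no mutation or treatment named in the labels. Per the labels, a slice of the outermost 150 microns of the forelimb was cut, loosened in cold trypsin, and parted into ectoderm (the epithelial sheet that covers the bud) and mesoderm (the mesenchyme with its vessels and blood). There were 16 libraries in 8 groups of 2, with ectoderm and mesoderm taken at embryonic day E9.5 and on each of the following days up to E12.5 (that is, E10.5 and E11.5 between them). The ectoderm and mesoderm libraries that carry 1 stage and 1 replicate number were parted from 1 batch of embryos. The slice had the same depth at every stage while the bud grew, so stage and the region sampled cannot be told apart in any comparison between stages.

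Iroquois proteins are transcription factors of the TALE class, whose homeodomain carries extra residues in a loop. In mammals the genes sit in a pair of clusters that arose by duplication of an ancestral cluster, with Irx1, Irx2 and Irx4 in the one and Irx3, Irx5 and Irx6 in the other. In the early limb bud, Irx3 and Irx5 are known as genes of the proximal and anterior mesenchyme that are needed for proximal and anterior skeletal elements, and Irx1 and Irx2 are known from the forming digits. Irx4 is best known from the ventricle of the heart, and Irx3, Irx5 and Irx6 lie in the region deleted in the Fused toes mouse.

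On build mm10, Irx1 (chr13:71957921-71963723, minus strand), Irx2 (chr13:72628820-72634198, plus strand) and Irx4 (chr13:73260479-73269608, plus strand) spread over 1312 kb of chromosome 13. Irx3 (chr8:91798525-91802067, minus strand), Irx5 (chr8:92357625-92376286, plus strand) and Irx6 (chr8:92674288-92680956, plus strand) spread over 882 kb of chromosome 8. All 6 are protein-coding genes in the GENCODE M21 annotation. Because the members are paralogs, the sequence most alike between them is shown here, a stretch of 177 coding bases within the homeobox, read from the GENCODE transcripts, 5′ to 3′ on the coding strand. It lies in exon 2 of Irx1 (chr13:71959992-71960168), Irx2 (chr13:72630676-72630852), Irx3 (chr8:91800496-91800672) and Irx5 (chr8:92359639-92359815), in exon 5 of Irx4 (chr13:73267535-73267711) and in exon 4 of Irx6 (chr8:92677248-92677424). Capitals mark the 35 positions at which the 6 genes are not all alike, and lower case marks the 142 positions that all share:
Irx1: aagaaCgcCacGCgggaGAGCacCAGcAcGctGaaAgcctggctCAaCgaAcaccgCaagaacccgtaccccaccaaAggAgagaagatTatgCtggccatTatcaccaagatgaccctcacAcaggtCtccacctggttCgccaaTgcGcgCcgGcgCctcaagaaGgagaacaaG
Irx2: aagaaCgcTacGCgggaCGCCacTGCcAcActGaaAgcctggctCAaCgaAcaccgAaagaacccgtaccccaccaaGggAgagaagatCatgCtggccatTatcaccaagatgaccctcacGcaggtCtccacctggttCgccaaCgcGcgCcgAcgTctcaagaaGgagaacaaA
Irx4: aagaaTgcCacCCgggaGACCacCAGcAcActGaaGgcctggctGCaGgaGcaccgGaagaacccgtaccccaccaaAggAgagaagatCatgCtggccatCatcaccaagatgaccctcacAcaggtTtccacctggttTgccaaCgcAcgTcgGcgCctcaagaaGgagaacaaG
Irx3: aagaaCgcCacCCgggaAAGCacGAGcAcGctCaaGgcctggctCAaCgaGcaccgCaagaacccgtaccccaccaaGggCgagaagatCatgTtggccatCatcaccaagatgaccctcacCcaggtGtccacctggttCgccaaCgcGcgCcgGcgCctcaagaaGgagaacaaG
Irx5: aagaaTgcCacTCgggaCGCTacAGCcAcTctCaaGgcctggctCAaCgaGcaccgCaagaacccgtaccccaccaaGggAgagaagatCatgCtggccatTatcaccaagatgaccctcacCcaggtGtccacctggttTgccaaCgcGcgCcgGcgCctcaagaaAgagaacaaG
Irx6: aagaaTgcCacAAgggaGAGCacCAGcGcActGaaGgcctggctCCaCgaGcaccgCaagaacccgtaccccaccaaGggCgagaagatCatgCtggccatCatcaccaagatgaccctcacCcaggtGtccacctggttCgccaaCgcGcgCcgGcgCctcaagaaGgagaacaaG

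Identity over this stretch ran from 86.4% (Irx2 with Irx4) to 94.4% (Irx3 with Irx6). Within a cluster the median of 6 pairs was 90.7%, and between the clusters that of 9 pairs was 89.8%, so that the stretch did not sort the genes by chromosome. The longest run of identical bases was 83 long, between Irx3 and Irx6, and the next was 65 long, between Irx2 and Irx5. Reads that fall wholly within such runs fit both genes, and how the deposited counting treated them was not given in the sources used here. Over their whole coding sequence, Irx3 and Irx5 shared 30 windows of 30 bases, and Irx4 shared none with Irx2, Irx3 or Irx5.

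Library sizes ran from 10005867 to 30438214 gene counts. In the lightest library 1 count was worth 0.1055 CPM (counts scaled to a common library size, with the effective library sizes of edgeR), and in the deepest 0.0345 CPM. The layers carried their labels, since all 12 markers of surface epithelium were detected in every library and their sum ran from 2412 to 7098 CPM in the ectoderm libraries and from 7.56 to 87.1 CPM in the mesoderm libraries. Sums over 10 limb mesenchyme markers overlapped between the layers, the ectoderm sums running from 514 to 2331 CPM and the mesoderm sums from 1862 to 5672 CPM. Within an embryo batch, the median mesenchyme marker stood in ectoderm at 3.47 to 13.7% of its mesoderm level in 7 batches and at 42.3% in replicate 1 of E11.5. In bulk tissue, fewer cells of a type and less RNA per cell cannot be told apart.

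The Iroquois genes held 4 kinds of profile. Irx3 and Irx5 were most abundant in E9.5 mesoderm, were nearly absent from mesoderm a day later, and were detected in the ectoderm libraries of every stage. Irx4 was an ectoderm gene at every stage. Irx2 was higher in ectoderm at every stage with a lower mesoderm level that dipped at E10.5 and E11.5, and Irx1 was the member whose highest level was in E12.5 mesoderm. Irx6 was at the edge of detection in every library.

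**Figure D1:**
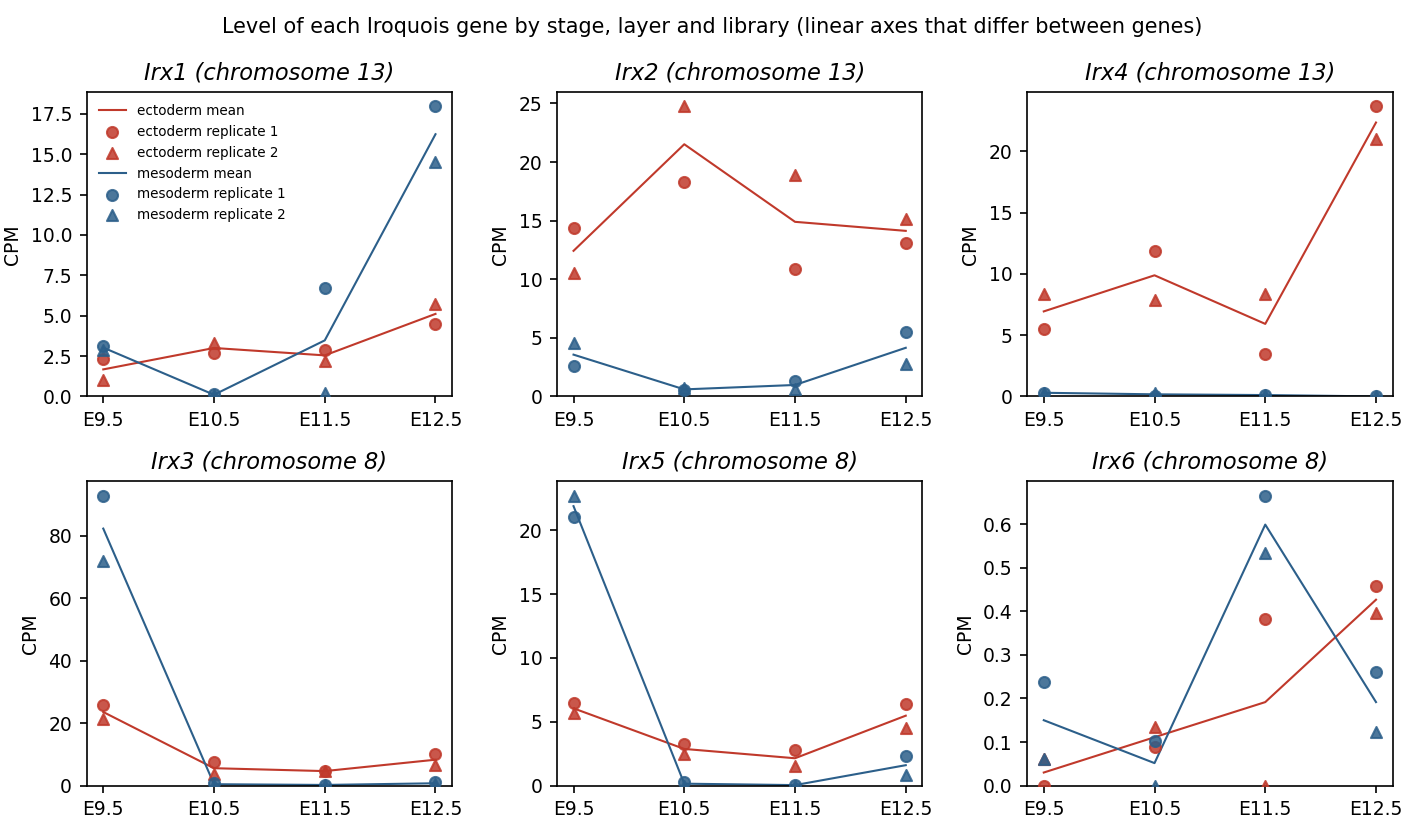
CPM of each Iroquois gene (vertical axes, linear, different for each gene) against stage for ectoderm (red) and mesoderm (blue), with circles for replicate 1, triangles for replicate 2 and lines through the means of 2 libraries. Irx3 and Irx5 peak in E9.5 mesoderm, Irx4 stays at the bottom in mesoderm, and Irx1 ends highest in E12.5 mesoderm.

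Levels are given below as CPM of the 2 libraries of a group, replicate 1 then replicate 2. Differences are log2 ratios with their standard error (SE) from edgeR's quasi-likelihood test, with p-values adjusted by Benjamini-Hochberg over the 15501 genes that passed a filter on low counts. A gene is called at an adjusted p under 0.05. The filter kept Irx1 to Irx5 and left out Irx6. With 2 embryo batches for each stage, a p-value speaks for the variation among these libraries alone.

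Irx3, which cooperates with Irx5 in the proximal and anterior limb, had the highest level of any member. In mesoderm it stood at 92.9 and 71.8 CPM at E9.5, 0.725 and 0.205 CPM at E10.5, 0.266 and 0.2 CPM at E11.5, and 1.05 and 0.488 CPM at E12.5. Both E9.5 libraries lay far above all later ones, and the 3 later stages rested on 3 to 24 counts per library. From E9.5 to E10.5 Irx3 fell in mesoderm (log2 -7.31, SE 0.56, adjusted p = 4.17e-05, edgeR). No change was called over the later steps in mesoderm, with log2 values of -1.09 (SE 0.67, adjusted p = 0.76) to E11.5 and 1.70 (SE 0.64, adjusted p = 0.369) to E12.5.

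In ectoderm Irx3 stood at 26.0 and 21.2 CPM at E9.5, 7.45 and 3.74 CPM at E10.5, 4.77 and 4.57 CPM at E11.5, and 10.1 and 6.53 CPM at E12.5. It fell in ectoderm as well from E9.5 to E10.5 (log2 -2.08, SE 0.43, adjusted p = 0.021), a smaller step than in mesoderm by the test of the difference (log2 5.22, SE 0.66, adjusted p = 0.00298). At E12.5 it was still below E9.5 in ectoderm (log2 -1.5, SE 0.42, adjusted p = 0.031). The first of these ectoderm calls was lost without ectoderm E9.5 replicate 1 (adjusted p = 0.116), E9.5 replicate 2 (0.0952) or E10.5 replicate 2 (0.183), and the second without any of the 4 libraries compared (0.0689 to 0.194).

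Irx5, the cluster neighbour of Irx3, was likewise highest in E9.5 mesoderm and fell there over the first day. Its mean level in FPKM, fragments scaled to transcript length and library size, was below that of Irx3 in each group except E12.5 mesoderm. In mesoderm it stood at 21.1 and 22.7 CPM at E9.5, 0.311 and 0 CPM at E10.5, 0.0887 and 0 CPM at E11.5, and 2.35 and 0.854 CPM at E12.5. The E9.5 libraries were again the highest, replicate 2 of E10.5 and of E11.5 had no count, and the E12.5 libraries lay above those of the 2 stages before. Irx5 fell in mesoderm from E9.5 to E10.5 (log2 -6.80, SE 0.81, adjusted p = 0.00049) and was higher again at E12.5 than at E10.5 (log2 3.06, SE 0.78, adjusted p = 0.0318). That return rested on 68 counts against 9 and was lost without mesoderm E12.5 replicate 1 (adjusted p = 0.275) or mesoderm E10.5 replicate 2 (adjusted p = 0.115), and stood at 0.05 to 0.0511 without each of the 4 E9.5 libraries.

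In ectoderm Irx5 stood at 6.44 and 5.67 CPM at E9.5, 3.28 and 2.47 CPM at E10.5, 2.77 and 1.52 CPM at E11.5, and 6.40 and 4.55 CPM at E12.5. The levels dipped in the middle stages, and none of the ectoderm changes of Irx5 was called (adjusted p from 0.482 to 1.0 over 5 comparisons, edgeR). With the replicate number as a block, the lowest of these was 0.092.

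The levels of Irx3 and Irx5 in E9.5 ectoderm were set beside those of mesenchyme genes, since the epithelium was peeled from tissue rich in both transcripts. Irx3 in ectoderm was 27.9 and 29.6% of the mesoderm level of the same batch, and Irx5 was 30.6 and 25.0%. The median mesenchyme marker in the same ectoderm libraries was at 13.7 and 10.7%. Other mesoderm markers differed more between the replicates. The median erythroid marker was at 2.56 and 27.9%, and the median of 2 muscle precursor markers at 8.9 and 23.0%. The median endothelial marker was at 4.2 and 2.0%. In replicate 2 the erythroid and muscle precursor values thus came near those of Irx3 and Irx5. At E10.5 the direction was the other way, with Irx3 in ectoderm more abundant than in mesoderm of the same batch in both batches. The part of mesenchyme RNA in the E9.5 ectoderm values was not tested.

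Other transcripts moved with the drop of Irx3 and Irx5 in mesoderm. The 6 markers of muscle precursors summed to 24.5 to 50.1 CPM in E9.5 mesoderm and to 0.311 to 1.36 CPM at E10.5, carried by Pax3 (18.4 and 11.4 CPM at E9.5) and Lbx1 (30.9 and 12.7 CPM at E9.5). Hoxd13, a gene of the most distal limb, named here after its values were seen, stood at 10.1 and 8.36 CPM in E9.5 mesoderm and at 401 and 745 CPM in E10.5 mesoderm. Their part in the Irx3 and Irx5 values was not tested.

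Irx4, a regulator of ventricular identity in the heart, was the member with the sharpest split between the layers. In ectoderm it stood at 5.49 and 8.39 CPM at E9.5, 11.9 and 7.88 CPM at E10.5, 3.49 and 8.34 CPM at E11.5, and 23.7 and 21.0 CPM at E12.5. In mesoderm it stood at 0.287 and 0.307 CPM at E9.5, 0.069 and 0.273 CPM at E10.5, 0.0887 and 0.133 CPM at E11.5, and had no count in either library at E12.5. Every ectoderm library lay above every mesoderm library, and no mesoderm library held more than 6 counts. Irx4 was higher in ectoderm at E9.5 (log2 4.52, SE 0.58, adjusted p = 0.0003), at E10.5 (6.01, SE 0.64, adjusted p = 6.45e-05) and at E11.5 (5.69, SE 0.66, adjusted p = 0.00016). At E12.5 it was at least 296-fold higher, on 836 counts against 0 with a floor of 3 counts over the group (adjusted p = 9.45e-06).

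Within the ectoderm, Irx4 rose from E9.5 to E12.5 (log2 1.68, SE 0.46, adjusted p = 0.0327), and the E12.5 libraries lay above all earlier ones. The call was lost without any of the 4 libraries compared (adjusted p from 0.0866 to 0.207). The step from E11.5 to E12.5 was not called (log2 1.93, SE 0.47, adjusted p = 0.133) but was called with the replicate number as a block (2.0, SE 0.38, adjusted p = 0.0155). In mesoderm the change from 11 counts at E9.5 to 0 at E12.5 was called (adjusted p = 0.0116), at least 3.88-fold lower, and was lost without mesoderm E12.5 replicate 1 (adjusted p = 0.0721) and with limma on log2(FPKM + 0.1) (0.11) or log2(FPKM + 1) (0.77).

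Irx2, known from developing digits, was a chromosome 13 gene with a level in both layers, as was Irx1. In ectoderm it stood at 14.3 and 10.497 CPM at E9.5, 18.3 and 24.8 CPM at E10.5, 10.9 and 18.9 CPM at E11.5, and 13.1 and 15.2 CPM at E12.5. These ranges overlapped between all neighbouring groups in the order of level, and no change of Irx2 between stages of the ectoderm was called (adjusted p from 0.411 to 1.0). In mesoderm it stood at 2.58 and 4.55 CPM at E9.5, 0.518 and 0.682 CPM at E10.5, 1.29 and 0.666 CPM at E11.5, and 5.49 and 2.81 CPM at E12.5. The mesoderm libraries of E9.5 and E12.5 lay above those of E10.5 and E11.5, and all 8 lay below the ectoderm.

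Irx2 was higher in ectoderm at each stage, by 1.80 log2 at E9.5 (SE 0.43, adjusted p = 0.0114), 5.18 at E10.5 (SE 0.52, adjusted p = 2.44e-05), 3.89 at E11.5 (SE 0.48, adjusted p = 0.000157) and 1.76 at E12.5 (SE 0.43, adjusted p = 0.00937). In mesoderm it fell from E9.5 to E10.5 (log2 -2.58, SE 0.49, adjusted p = 0.00766) and was higher at E12.5 than at E10.5 (2.81, SE 0.49, adjusted p = 0.00584). The E9.5 layer call was lost without mesoderm E9.5 replicate 1 (adjusted p = 0.107) or ectoderm E9.5 replicate 1 (0.0745), and the E12.5 layer call without mesoderm E12.5 replicate 2 (0.0807). The mesoderm fall was lost without mesoderm E9.5 replicate 2 (0.0529) or E10.5 replicate 1 (0.0898), and the return without mesoderm E10.5 replicate 1 (0.0889) or E12.5 replicate 1 (0.0527).

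The mesoderm values of Irx2 were larger shares of the ectoderm level than those of epithelial genes in the same libraries. Irx2 in mesoderm was 18.0 and 43.4% of the ectoderm level at E9.5 and 42.0 and 18.5% at E12.5, while the median surface epithelium marker was at 0.523 and 0.797% and at 0.282 and 0.11%. At E10.5 Irx2 was at 2.83 and 2.75% and the median epithelial marker at 1.32 and 0.73%. Irx4 in mesoderm, at 0 to 5.22% of its ectoderm level over the 8 batches, was nearer to the range of the epithelial median, 0.11 to 2.28%.

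Irx1, known from digit condensations and forming joints, had a late mesoderm peak. In mesoderm it stood at 3.15 and 2.89 CPM at E9.5, 0.138 and 0.0682 CPM at E10.5, 6.74 and 0.2 CPM at E11.5, and 18.0 and 14.5 CPM at E12.5. The E12.5 libraries were the highest of all 16, and the E10.5 libraries the lowest. The E11.5 replicates disagreed, with 152 counts in replicate 1 and 3 in replicate 2. Because of that, both steps depended on which E11.5 library was kept. With each library left out, the step from E10.5 to E11.5 (log2 4.90, SE 1.19, adjusted p = 0.124) ran from 0.8 to 5.83. It stood at 5.83 without E11.5 replicate 2. The step from E11.5 to E12.5 (2.2, SE 0.88, adjusted p = 0.414) ran from 1.26 to 6.30, and stood at 6.30 without E11.5 replicate 1. Irx1 fell in mesoderm from E9.5 to E10.5 (log2 -4.67, SE 1.20, adjusted p = 0.0321) and was higher at E12.5 than at E10.5 (7.09, SE 1.23, adjusted p = 0.00541). The fall was lost without any of the 4 libraries compared (adjusted p from 0.0794 to 0.182), and the rise without E10.5 replicate 1 (0.0776) or replicate 2 (0.0506), when the E10.5 group rests on 1 library with 1 or 4 counts. The difference of E12.5 from E9.5 was not called (log2 2.42, SE 0.90, adjusted p = 0.063) and was called with the replicate number as a block (2.42, adjusted p = 0.0112). Without either E11.5 mesoderm library log2 stayed at 2.42. Those libraries are in neither group compared and bear on the p-value through the spread estimate that all groups share.

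In ectoderm Irx1 stood at 2.32 and 1.03 CPM at E9.5, 2.66 and 3.34 CPM at E10.5, 2.90 and 2.18 CPM at E11.5, and 4.48 and 5.74 CPM at E12.5. These levels spanned a narrow range beside the mesoderm, and no ectoderm change of Irx1 was called (adjusted p from 0.29 to 1.0). Irx1 was higher in ectoderm at E10.5 (log2 4.66, SE 1.21, adjusted p = 0.0136), a call that rested on 80 against 5 counts and was lost without mesoderm E10.5 replicate 1 (0.0895) or replicate 2 (0.0797), and with limma on log2(FPKM + 1) (0.0707). At E12.5 every mesoderm library lay above every ectoderm library, with a log2 of -1.67 (SE 0.87, adjusted p = 0.208) that was called with the embryo batch as a block (-1.68, SE 0.54, adjusted p = 0.027). Without either E11.5 mesoderm library log2 stayed at -1.67. Those libraries are in neither group compared and bear on the p-value through the spread estimate that all groups share. Of all the members tested, Irx1 was the single one not called in the average of the layer difference over the stages (log2 0.41, SE 0.48, adjusted p = 0.54; 1.43 and adjusted p = 0.000858 without mesoderm E11.5 replicate 1).

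The 2 mesoderm libraries of E11.5 also differed in cartilage and joint genes, a comparison added after the Irx1 counts were seen. Of 13 tested genes of that list 10 were higher in replicate 1, the library with the Irx1 counts, and 3 in replicate 2. The share of all tested genes higher in replicate 1 was not computed, and the replicates also differ in RNA kit version. Osr2 went the other way, at 0.222 CPM in replicate 1 and 1.73 CPM in replicate 2. Some of the genes higher in replicate 1 were low, such as Acan at 0.798 and 0.266 CPM. Sox9, the master regulator of cartilage, stood at 123 CPM in replicate 1 and 53.6 CPM in replicate 2, Col2a1, the collagen of cartilage, at 120 and 44.7 CPM, and Gdf5, a growth factor of forming joints, at 13.8 and 6.86 CPM. None of these ratios was as large as that of Irx1. With 1 library on each side there is no test, and their part in the Irx1 difference was not tested.

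Irx6, the third gene of the chromosome 8 cluster, had 69 counts in all 16 libraries together and at most 15 in any one. In ectoderm the libraries of E9.5 had 0 and 1 counts, those of E10.5 had 1 and 2, those of E11.5 had 9 and 0, and those of E12.5 had 10 and 6. In mesoderm the E9.5 libraries had 5 and 1 counts, the E10.5 libraries 3 and 0, the E11.5 libraries 15 and 8, and the E12.5 libraries 6 and 2. The highest level was 0.665 CPM, in replicate 1 of E11.5 mesoderm. Fitted without the filter, Irx6 was called in 0 of 17 comparisons (2 at an unadjusted p under 0.05, lowest adjusted p 0.222, edgeR). On counts alone, E11.5 mesoderm stood at 8.91 times the E10.5 level on 23 counts against 3 (95% counting interval 2.69 to 46.3). E12.5 ectoderm stood at 11.3 times the E9.5 level on 16 counts against 1 (1.75 to 472) and at 3.78 times the E10.5 level on 16 against 3 (1.08 to 20.3). These intervals leave out the spread between libraries. Gm45505, a gene on the other strand that overlaps Irx6 over 785 bases, had 10 and 11 counts in the same E11.5 mesoderm libraries, and without stated strand counting the reads of the pair cannot be told apart.

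At each stage, the layer comparison asked which members were higher in the epithelium and which in the tissue beneath it. At E9.5, 2 of the 5 tested members were higher in ectoderm (Irx2 and Irx4) and 1 was lower (Irx3), where 13.1% of all tested genes were higher and 8.29% lower. Irx3 was lower by log2 -1.81 (SE 0.41, adjusted p = 0.00871; 0.0678 without mesoderm E9.5 replicate 1 and 0.0833 without ectoderm E9.5 replicate 2). Irx5 had a difference of the same size that just missed the threshold (log2 -1.85, SE 0.61, adjusted p = 0.0508) and was called with the embryo batch as a block (-1.86, SE 0.32, adjusted p = 0.000993) and by DESeq2 (adjusted p = 0.00155). Irx1 was at -0.89 (SE 0.93, adjusted p = 0.594).

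From E10.5 on the direction of Irx3 and Irx5 was the reverse. At E10.5 all 5 tested members were higher in ectoderm, where 16.2% of all tested genes were, with Irx3 at log2 3.42 (SE 0.51, adjusted p = 0.000462) and Irx5 at 3.87 (SE 0.78, adjusted p = 0.00342). At E11.5, 4 of 5 were higher, where 12.9% of tested genes were. Irx3 was at 4.26 (SE 0.58, adjusted p = 0.00029), and Irx5 had a ratio of 42.8 (95% counting interval 11.514 to 359, adjusted p = 0.00247) on 88 counts against 2. The exception was Irx1 at -0.47 (SE 0.88, adjusted p = 0.821), which stood at 3.63 and was called without mesoderm E11.5 replicate 1 (adjusted p = 0.00456), so that 5 of 5 were then higher.

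At E12.5, 3 of 5 were higher in ectoderm and none lower, where 13.3% of tested genes were higher. Irx3 was at log2 3.39 (SE 0.49, adjusted p = 0.000327), beside Irx2 and Irx4 as above. Irx5 was at 1.75 (SE 0.63, adjusted p = 0.0633), with both ectoderm libraries above both mesoderm libraries, and was called with the embryo batch as a block (1.81, SE 0.37, adjusted p = 0.00232), by DESeq2 (adjusted p = 0.00586) and without mesoderm E12.5 replicate 1 (2.67, adjusted p = 0.0441). With that block all 5 members were called at E12.5, Irx1 in the lower direction. The same block called 7080 of the 15501 tested genes at that stage, in either direction. Averaged over the 4 stages, 4 of 5 were higher in ectoderm, where 24.3% of tested genes were. The averages of Irx3 (log2 2.32, SE 0.25) and Irx5 (2.24, SE 0.38) hide the opposite sign at E9.5.

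**Figure D2:**
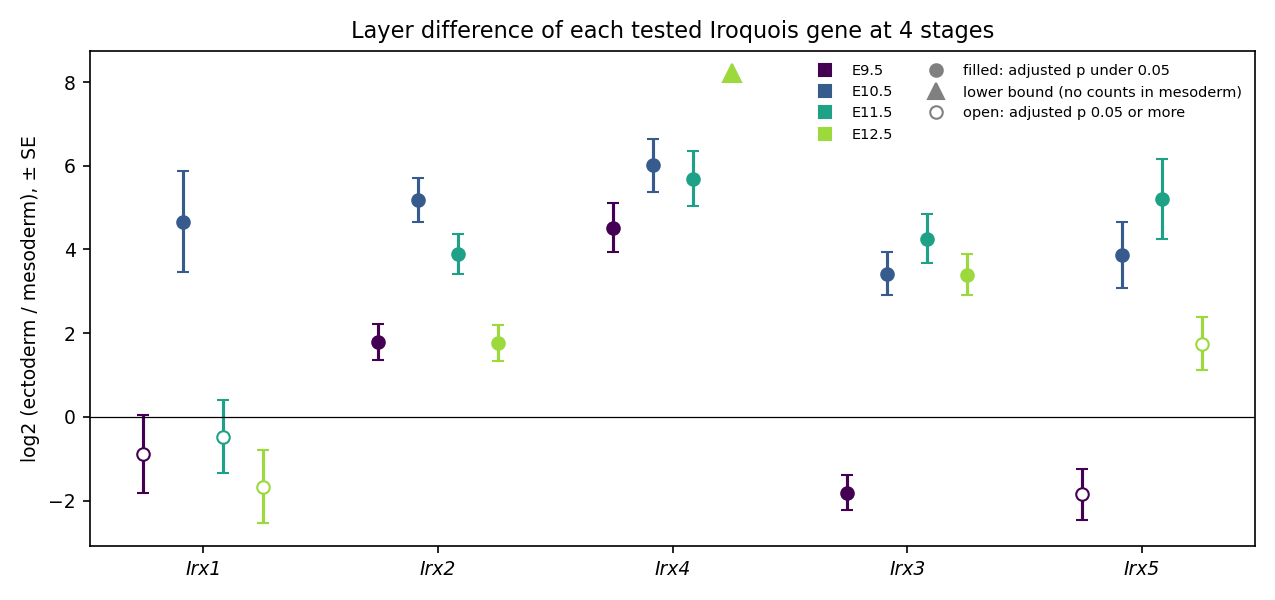
Log2 ratio of ectoderm to mesoderm (vertical axis) for the 5 tested genes at 4 stages (colours), with bars of 1 SE from edgeR over 2 libraries a group. Filled circles have an adjusted p under 0.05, open circles do not, and the triangle for Irx4 at E12.5 is a lower bound; Irx3 and Irx5 lie below 0 at E9.5 and above it at the 3 later stages.

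Between stages, the first day in mesoderm was the step at which most members moved. From E9.5 to E10.5, 4 of 5 fell (Irx1, Irx2, Irx3 and Irx5), where 3.95% of all tested genes fell, and the fifth, Irx4, went from 11 counts to 6 (log2 -0.98, SE 0.75, adjusted p = 0.519). From E10.5 to E11.5 and from E11.5 to E12.5, 0 of 5 were called in mesoderm, where 0.394% and 0.31% of tested genes were called in either direction. At an unadjusted p under 0.05 these counts were 1 and 5, and the share of all tested genes at that threshold is not given. DESeq2 called 1 and 2 members, and 399 and 404 of the 15501 tested genes. With the replicate number as a block 1 and 2 were called, among them Irx1 over the first of the steps (log2 4.83, adjusted p = 0.0277), and Irx2 (2.05, adjusted p = 0.026) and Irx5 (4.79, adjusted p = 0.00699) over the second. That block called 746 and 805 of all tested genes over these steps. From E10.5 to E12.5, a comparison added after the levels were seen, 3 of 5 were higher (Irx1, Irx2 and Irx5), where 6.39% of tested genes were.

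In ectoderm the day steps moved fewer members. From E9.5 to E10.5, 1 of 5 fell (Irx3), where 1.18% of tested genes fell. From E10.5 to E11.5 and from E11.5 to E12.5, 0 of 5 were called, where 0.00645% and 0.426% of tested genes were called in either direction. At an unadjusted p under 0.05 these counts were 0 and 1. DESeq2 called 0 and 1 members, and 222 and 418 of all tested genes. From E10.5 to E12.5, again a comparison added after the levels were seen, 0 of 5 were called by edgeR and by DESeq2. At an unadjusted p under 0.05 the count was 1. Of all tested genes edgeR called 5.03% and DESeq2 called 1269, in either direction.

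Over the 3 days in mesoderm, 3 of 5 were lower at E12.5 than at E9.5 (Irx3, Irx4 and Irx5), where 12.6% of tested genes were. Irx3 was lower by log2 -6.69 (SE 0.54, adjusted p = 2.04e-05) and Irx5 by -3.74 (SE 0.66, adjusted p = 0.00169), and Irx2 was at 0.23 (SE 0.43, adjusted p = 0.743). In ectoderm over the same days Irx4 was higher and Irx3 lower, 1 of 5 in each direction, where 9.1% of tested genes were higher and 7% lower. The difference between E9.5 and E12.5 was called as unlike between the layers for 3 of 5 members, each with the higher value in ectoderm, where 3.12% of tested genes were called that way. These were Irx3 (log2 5.20, SE 0.64, adjusted p = 0.000693), Irx5 (3.60, SE 0.88, adjusted p = 0.0283, or 0.0757 to 0.11 without any of 6 of the 8 libraries compared) and Irx4, whose fitted value depends on the prior count because mesoderm had no count at E12.5 (adjusted p = 0.0107). For the day from E9.5 to E10.5, a comparison also added after the levels were seen, Irx2 (3.38, SE 0.65, adjusted p = 0.0218), Irx3 and Irx5 (5.72, SE 1.0, adjusted p = 0.0135) were called, 3 of 5, where 1.46% of tested genes were. Irx1 was not called (5.56, SE 1.53, adjusted p = 0.108), but was with the embryo batch as a block (5.54, SE 1.26, adjusted p = 0.0227), by DESeq2 (adjusted p = 0.00555) and without the filter (adjusted p = 7.46e-10), which made it 4 of 5. Those settings called 1280, 685 and 750 genes in all, in either direction. The call of Irx2 was lost without 7 of the 8 libraries compared (adjusted p from 0.0508 to 0.124) and with limma on log2(FPKM + 0.1) (0.127) or log2(FPKM + 1) (0.237). That of Irx5 was lost without mesoderm E9.5 replicate 2, either ectoderm E9.5 library or ectoderm E10.5 replicate 1 (0.0504 to 0.0825).

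The clusters were set side by side in FPKM, which allows levels of different genes to be summed. In E9.5 mesoderm the chromosome 8 genes summed to 32.4 and 29.4 FPKM and the chromosome 13 genes to 3.23 and 3.65 FPKM. The chromosome 13 share of all Iroquois FPKM was thus 9.06 and 11.0%. By E12.5 the order was reversed, with 1.2 and 0.549 FPKM from chromosome 8 and 12.525 and 8.73 FPKM from chromosome 13, a share of 91.3 and 94.1%. In between, the 6 genes together came to 0.637 and 0.475 FPKM in E10.5 mesoderm, the lowest sums of all groups, and to 4.17 and 0.979 FPKM at E11.5.

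The mesoderm was carried by different genes at its ends. At E9.5 Irx3 had 25.9 and 21.9 FPKM and Irx5 6.44 and 7.46 FPKM, against 2.51 and 1.46 FPKM for Irx1 and 0.621 and 2.08 FPKM for Irx2. At E12.5 Irx1 had 10.2 and 7.61 FPKM and Irx2 2.33 and 1.12 FPKM, against 0.807 and 0.331 FPKM for Irx5 and 0.328 and 0.178 FPKM for Irx3. Irx4 took no more than 0.105 FPKM in any mesoderm library.

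In ectoderm the balance shifted less. The chromosome 13 share was 44.4 and 50.0% at E9.5 and 72.3 to 89.1% in the 6 later libraries. The chromosome 8 sum was 9.85 and 8.26 FPKM at E9.5 and 2.02 to 5.24 FPKM later. Irx2 was the largest single component at E10.5 (6.22 and 11.6 FPKM) and at E11.5 (3.65 and 7.36 FPKM), and at E12.5 Irx4 (7.70 and 7.32 FPKM) stood beside Irx2 (3.95 and 7.52 FPKM). Irx3 was the largest at E9.5 (7.73 and 6.35 FPKM). The shares are descriptions of each library and were not tested.

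**Figure D3:**
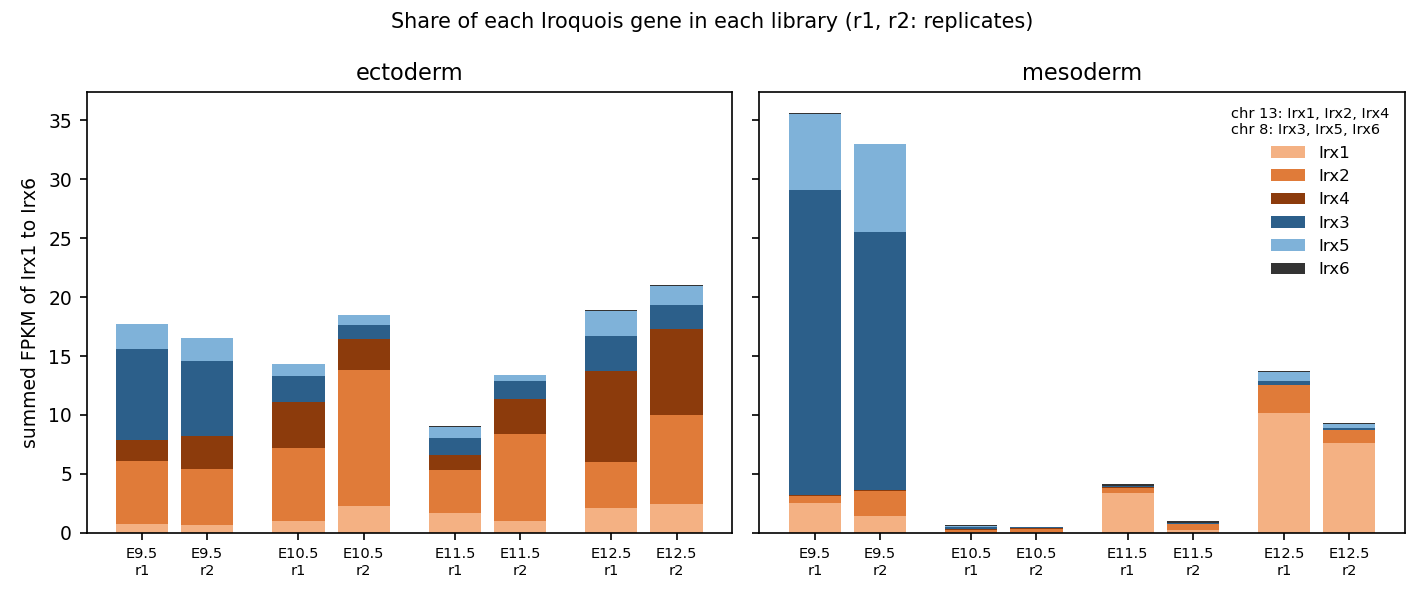
Summed FPKM of Irx1 to Irx6 (vertical axis) in each ectoderm library (left) and mesoderm library (right), with r1 and r2 for the replicates, orange to brown for the chromosome 13 genes and blue to black for the chromosome 8 genes. Blue fills the E9.5 mesoderm bars and orange the E12.5 mesoderm bars, with almost nothing at E10.5.

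The shape of each profile was compared between members as the root mean square (RMS) difference of log2 CPM over the 8 group means, each gene centred on its own mean. This is a description over 8 groups of the same 16 libraries, with no test. Irx3 and Irx5 were the nearest pair, at 0.83. Of 15500 genes, Irx5 ranked 4 by nearness to Irx3. No other pair was nearer than 1.62, the value of Irx2 with Irx4. Irx1 and Irx2 stood at 1.64 and, across the clusters, Irx2 and Irx5 at 1.67. The median distance of all genes from Irx2 was 1.76, not far above these values. By nearness to Irx2, Irx4 ranked 4327 and Irx1 4661, while by nearness to Irx4, Irx2 ranked 615. The farthest pair was Irx1 with Irx4, in the same cluster, at 3.09. Irx6 was not part of this comparison, since it did not pass the filter.

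**Figure D4:**
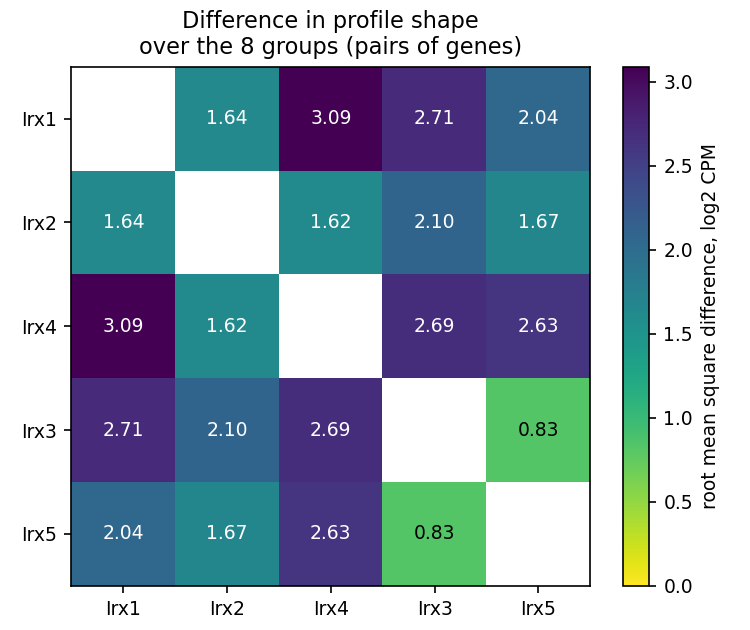
Root mean square difference of centred log2 CPM over the 8 groups for each pair of the 5 tested genes (colour scale and printed values, smaller is more alike). The Irx3 and Irx5 pair has the smallest value, 0.83, and the Irx1 and Irx4 pair the largest, 3.09.

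Among all other tested genes, the nearest in shape to Irx5 was Irx3. The next were Wnt2, a Wnt ligand, at 0.95 and Kcnq5, a potassium channel gene, at 1.01, where the median over all genes was 2.30. Among the nearest to Irx3 were Wnt2 (0.69) and the anterior Hox gene Hoxb1 (0.83), with a median of 2.61. The nearest to Irx4 were Bspry (0.48), Cnksr1 (0.56) and Fam83b (0.58), whose group means ran from 5.55 to 39.7 CPM in ectoderm and did not pass 0.44 CPM in mesoderm. The nearest to Irx2 were the FGF receptor gene Fgfr2 (0.48), Gpat3 (0.48) and the junction protein gene F11r (0.54), and each was lowest in E10.5 mesoderm, as Irx2 was. The nearest to Irx1 were Sbspon (0.89), Kcnf1 (0.93) and the netrin receptor gene Unc5c (0.95), and each was lowest in E10.5 mesoderm as well. All these genes were picked by nearness over the same group means, so shared highs and lows come with the choice. Sbspon had a mean of 0.0173 CPM in E10.5 mesoderm and did not pass 1.66 CPM in any group.

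Of the members whose level was higher in ectoderm at each stage, Irx2 and Irx4, the sequence before the transcription start is shown for comparison. RefSeq (build GRCm38.p6) held promoters of 3 members, Irx2, Irx3 and Irx4. The 250 bases before the RefSeq start are given 5′ to 3′ on the coding strand, chr13:72628570-72628819 for Irx2 and chr13:73260247-73260496 for Irx4, with matches to the GC box GGGCGG (or CCGCCC on the other strand) in capitals:
Irx2: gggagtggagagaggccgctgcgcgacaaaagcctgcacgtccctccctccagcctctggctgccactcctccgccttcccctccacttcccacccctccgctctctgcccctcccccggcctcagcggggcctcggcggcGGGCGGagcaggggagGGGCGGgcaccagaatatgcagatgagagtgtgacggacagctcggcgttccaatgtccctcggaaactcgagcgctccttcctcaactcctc
Irx4: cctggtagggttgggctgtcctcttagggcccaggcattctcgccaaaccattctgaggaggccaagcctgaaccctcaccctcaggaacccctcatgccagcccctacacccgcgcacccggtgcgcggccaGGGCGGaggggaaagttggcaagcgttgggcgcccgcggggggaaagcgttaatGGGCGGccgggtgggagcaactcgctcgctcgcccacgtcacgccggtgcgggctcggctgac

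Each window held 2 GC boxes, and 32.7% of 32851 promoter windows of the same length held at least 1. The TFAP2 motif GCCNNNGGC, that of a family of epidermal factors, had 1 match in the Irx2 window and none in the Irx4 window, and 13.7% of windows had it. The GLI motif GACCACCCA had no match in either, and 0.225% of windows had it. Both windows were rich in CG pairs, 19 for Irx2 and 22 for Irx4, where the median window had 6. The window of Irx3, whose sequence is not shown, held 13 CG pairs and no match to any of these motifs. That window (chr8:91801655-91801904) lies within an exon of Irx3 in GENCODE, so the annotations differ on the start and it is not directly comparable. The last 18 bases of the Irx4 window also fall within the GENCODE gene. A match is a description of the letters, and no binding was measured here.

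Genes around the clusters were read for comparison, within the clusters and 200 kb to each side. Fto, the large gene beyond the 3′ end of Irx3, stood at 140 to 177 CPM in mesoderm and 173 to 218 CPM in ectoderm (group means), and was not called from E9.5 to E10.5 in mesoderm (log2 0.00, SE 0.27, adjusted p = 1.0). Mmp2, a matrix protease gene beyond Irx6, stood at 315 CPM in E9.5 mesoderm and 498 CPM at E10.5 (0.66, SE 0.44, adjusted p = 0.444). On chromosome 13, Ndufs6, a respiratory chain gene beyond Irx4, was at 51.2 and 52.6 CPM over the same day (0.04, SE 0.35, adjusted p = 0.984). None of these 3 abundant neighbours was called over that day.

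Some noncoding transcripts near the Iroquois genes fell over the same day. Irx3os, which overlaps Irx3 over 1653 bases on the other strand, fell in mesoderm from E9.5 to E10.5 (log2 -5.26, SE 1.04, adjusted p = 0.009), from 2.07 to 0.0514 CPM (group means). Crnde, which starts 1505 bases from Irx5 in the other direction, fell as well (-3.89, SE 0.86, adjusted p = 0.0155). So did Gm36325, which lies between Fto and Irx3 and had no count in E10.5 mesoderm (adjusted p = 0.0178). Gm20554, which starts 256 bases from Irx2 in the other direction, was not called over that day (-1.12, SE 1.29, adjusted p = 0.708), nor were Eprn (-1.52, SE 0.87, adjusted p = 0.459) and the pseudogene Gm9619 (-1.54, SE 0.58, adjusted p = 0.136). In the average layer comparison Gm20554 was higher in ectoderm (3.23, SE 0.48, adjusted p = 0.000174). Whether the counts were made by strand was not given in the sources used here, so the reads of Irx3 and Irx3os cannot be told apart where they overlap. Irx3os had 30 and 44 counts in E9.5 mesoderm against 1945 and 1168 for Irx3.

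Counts per exon bin were read to see whether the layers used the same parts of each gene. Summed over 8 libraries a layer, Irx4 had 1699 bin counts in ectoderm, spread over 7 of 8 bins, and 25 in mesoderm, over 5 of 8. Irx3 had counts in all 6 bins in both layers, and Irx1 in 7 of 9 bins in both. The low mesoderm counts of Irx4 were thus not those of a single exon.

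Genes in and around the Fused toes region (Rbl2, Aktip, Rpgrip1l, Fto, Irx3, Irx5 and Irx6) were counted as a list. In the average layer comparison 4 of 6 tested were higher in ectoderm and none lower, where 24.3% of all tested genes were higher and 21.4% lower. The list median was log2 0.98 where the median over all tested genes was 0.01. Irx3 and Irx5 were the largest. The smallest were Fto (0.34, SE 0.13, adjusted p = 0.0604) and Rbl2 (0.37, SE 0.20, adjusted p = 0.163), a relative of the retinoblastoma protein. From E9.5 to E10.5 in mesoderm 2 of 6 fell, Irx3 and Irx5, where 3.95% of tested genes fell, and the list median was -0.22. Both are Iroquois genes, so this count repeats their own result. Rbl2 (log2 0.51), Aktip (0.14), Rpgrip1l (-0.45) and Fto were not called over that day. Irx3 and Irx5 are part of the layer counts and medians of this list as well.

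The other TALE homeobox genes, 12 in all and all tested, were the closest relatives outside the family. On average 7 were higher in ectoderm and 2 lower, where 24.3% of tested genes were higher and 21.4% lower, and the list median was log2 0.66. The largest were Meis1 (4.52, SE 0.23) and Meis2 (4.50, SE 0.11), known as markers of the proximal limb. The lowest were Mkx, the tendon regulator Mohawk and the nearest relative of the Iroquois genes (-0.66, SE 0.22, adjusted p = 0.0264), and Pknox1 (-0.41, SE 0.09, adjusted p = 0.00352). From E9.5 to E10.5 in mesoderm 5 of 12 fell and 1 rose, where 3.95% of tested genes fell and 5.3% rose. The list median was -0.72 where that of all genes was 0.0. Meis1 went from 84.8 to 3.34 CPM (log2 -4.68, SE 0.44, adjusted p = 0.000137) and Meis2 from 259 to 5.24 CPM (-5.64, SE 0.23, adjusted p = 4.8e-07), smaller in log2 than the fall of Irx3. Mkx rose from 2.28 to 10.3 CPM over the day (2.17, SE 0.45, adjusted p = 0.0108), the opposite way to Irx3. In ectoderm at E9.5 Meis1 and Meis2 stood at 155 and 231 CPM, beside 84.8 and 259 CPM in mesoderm. Irx3 in the same ectoderm libraries was at 27.9 and 29.6% of its mesoderm level. The part of mesenchyme RNA in these ectoderm values was not tested.

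Hedgehog and anterior-posterior genes were counted because Irx3 and Irx5 are known to act before and beside Hedgehog signalling in the bud. On average 12 of 16 were lower in ectoderm and none higher, where 21.4% of tested genes were lower and 24.3% higher. The list median was log2 -1.38, the opposite sign to the averages of Irx2, Irx3, Irx4 and Irx5. At E9.5 the list median was -1.03, the same sign as Irx3 (-1.81) and Irx5 (-1.85, not called) at that stage. In the average the lowest were Shh, the signal of the posterior margin (-3.74, SE 0.89, adjusted p = 0.00535), and Hand2, a regulator of Shh (-3.21, SE 0.32, adjusted p = 5.81e-06). Among the highest was the Hedgehog receptor gene Ptch1 (0.61, SE 0.25, adjusted p = 0.0628). Shh went from 0.683 CPM in E9.5 mesoderm to 48.9 CPM a day later, then to 8.82 CPM in E11.5 and 0.113 CPM in E12.5 mesoderm (group means), so its peak fell at the stage at which the mesoderm means of Irx1 and Irx2 were lowest. Those of Irx3 and Irx5 were lowest a day later. From E9.5 to E10.5 in mesoderm 5 of 16 rose and 1 fell, where 5.3% of tested genes rose and 3.95% fell.

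Cartilage and joint genes were counted beside Irx1, whose peak was in E12.5 mesoderm. Of 13 tested, 8 rose in mesoderm from E9.5 to E12.5 and none fell, where 17% of tested genes rose and 12.6% fell. The list median was log2 2.61 where that of all genes was 0.02. Gdf5, for example, stood at 0.109 CPM at E9.5 and 57.0 CPM at E12.5 (8.96, SE 0.97, adjusted p = 0.000102), and Sox9 at 31.9 and 315 CPM (3.31, SE 0.41, adjusted p = 0.000228). In the average layer comparison 4 were higher in ectoderm and 6 lower, where 24.3% of tested genes were higher and 21.4% lower. At the top were Col2a1 (3.46, SE 0.27) and Wnt9a (2.37, SE 0.22), and at the bottom Erg (-4.09, SE 0.30) and Osr1 (-2.46, SE 0.57). At E12.5, the stage of the Irx1 peak, 0 of 13 were higher in ectoderm and 7 lower, with a list median of log2 -2.32. Of all tested genes 13.3% were higher and 13.2% lower at that stage, so the average does not describe the list at E12.5. By group means in mesoderm, Sox9 (16.7 CPM) and Col2a1 (30.6 CPM) were lowest at E10.5, as Irx1 was, and Gdf5 was lowest at E9.5. Over the whole list, 3 of 13 rose and 1 fell in mesoderm from E9.5 to E10.5, the step at which Irx1 fell. Of all tested genes 5.3% rose and 3.95% fell over that day, and the list median was log2 -0.24.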

How the data were processed

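Polyadenylated RNA was sequenced with a stranded kit in 16 libraries. Per the labels' protocols, replicate 1 and replicate 2 were extracted with different versions of an RNA kit. The processing notes of the submitters list build mm10 and, as tools, STAR 2.6.0c, bedtools 2.27.1, Cufflinks 2.2.1 and cutadapt 1.16. The authors deposited whole-number gene counts, and the tool that made them and its use of strand are not given in the sources used here. The deposited FPKM values come from the authors' Cufflinks run, per the file headers, and the deposited exon bin counts were used to describe coverage alone.

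Gene counts were tested with edgeR 4.0.16 in R 4.3.3 (TMM scaling, filterByExpr, 1 mean for each of 8 groups, quasi-likelihood F test), which was tested on simulated data. Benjamini-Hochberg adjustment ran over the 15501 genes tested in each of 14 planned comparisons and 3 added after the data were seen. Alternatives were DESeq2 1.42.0 and its size factors, no filter, each library left out, limma 3.58.1 on log2(FPKM + 0.1) and log2(FPKM + 1), and the embryo batch (layers) or the replicate number (stages) as a block. The labels state that layers share embryo batches, and deviations of same-numbered libraries correlated across genes at r = 0.546 to 0.666.

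A group without counts was given a floor of 3 counts. Ratios with 1 to 3 counts in the lower group carry a 95% counting interval, and intervals and floors cover counting error only. The members, lists and likeness measure were chosen with earlier results of these data known. Named list genes are the 2 highest and 2 lowest in the average layer comparison, and others are named as examples after their values were seen. Some genes that these rules name are not reported here. Positions and exons come from GENCODE M21 (mm10) and promoter windows from RefSeq.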

Additional observations from a re-analysis of the deposited data

Results flagged for a closer look

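For 3 Iroquois genes, E12.5 differed from E9.5 by unlike amounts in ectoderm and mesoderm, by the interaction test of edgeR with Benjamini-Hochberg adjustment over all tested genes. Irx3, the limb gene of the chromosome 8 cluster, had a difference of 5.2 log2 (SE 0.64, adjusted p = 0.000693), with a mesoderm change of -6.69 and an ectoderm change of -1.5. Irx5, its cluster neighbour, had a difference of 3.6 (SE 0.88, adjusted p = 0.0283), with a mesoderm change of -3.74 and an ectoderm change of -0.14. Irx4, the ectoderm gene of the chromosome 13 cluster, had a fitted difference of 7.12 (SE 1.36, adjusted p = 0.0107). That size is no bound, since Irx4 had 11 counts in E9.5 mesoderm and 0 at E12.5.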

How the results depend on the processing

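Every comparison of stages joins stage with the region sampled, and each group has 2 libraries, so a left-out library leaves a lone sample that is assumed to vary like the other groups. Irx6 and most mesoderm values from E10.5 on rest on few counts. Of 1870 values of single members under an alternative, 1726 kept their direction and their side of the threshold, 62 lost a call, 62 gained one and 20 turned sign.

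Over all tested genes, a block for the embryo batch raised the number called between the layers from 3320 to 6573 at E9.5, 4093 to 7531 at E10.5, 3196 to 6197 at E11.5 and 4099 to 7080 at E12.5. For the layer difference in the change it gave 3873 rather than 1282 (E9.5 to E12.5) and 1280 rather than 352 (E9.5 to E10.5), where DESeq2 gave 1967 and 685, limma on log2(FPKM + 1) 2060 and 591, and no filter 750 for the latter. The replicate number as a block gave 5480 rather than 2495 in ectoderm and 7987 rather than 4589 in mesoderm from E9.5 to E12.5, 2371 rather than 641 and 4297 rather than 1433 from E9.5 to E10.5, and 2228 rather than 780 and 4693 rather than 1477 from E10.5 to E12.5. DESeq2 gave 1157 and 2153 from E9.5 to E10.5 and 1269 and 2302 from E10.5 to E12.5 in ectoderm and mesoderm, and no filter 1209 and 1277 in ectoderm. The later day steps, with 1 to 66 genes called, gave 222 to 418 with DESeq2, 434 to 805 with the block, 500 to 639 without the filter and 111 to 168 with limma on log2(FPKM + 1). On log2(FPKM + 0.1), limma gave 33 rather than 1 in ectoderm from E10.5 to E11.5.

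Blocking on the embryo batch, 5 of 5 members were called at E12.5 between the layers rather than 3, as they were without the filter and with limma on log2(FPKM + 1). With the replicate number as a block 1 member was called in ectoderm from E11.5 to E12.5 rather than 0, 1 in mesoderm from E10.5 to E11.5 rather than 0, and 2 from E11.5 to E12.5 rather than 0. The block added calls and ended none of those in the report. DESeq2 gave 1, 1 and 2 for these steps, no filter gave 1, 1 and 4, and limma gave 1 in mesoderm from E11.5 to E12.5 on log2(FPKM + 0.1) and 1 in ectoderm from E11.5 to E12.5 on log2(FPKM + 1). Limma on log2(FPKM + 1), which shrinks low genes, called 2 members in mesoderm from E9.5 to E10.5 rather than 4 (Irx1 at adjusted p = 0.0812 and Irx2 at 0.265 were lost, Irx2 also on log2(FPKM + 0.1) at 0.0568), 1 from E10.5 to E12.5 rather than 3 (Irx2 at 0.118, Irx5 at 0.0609), and 1 in ectoderm from E10.5 to E12.5 rather than 0. The sign turned for values that were not called: Irx1 between the layers at E11.5 (0.32 on log2(FPKM + 0.1)) and on average (-0.29 on log2(FPKM + 1)), and Irx2 in ectoderm from E11.5 to E12.5 (0.07 and 0.06).

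With each library left out, the number of members called ran from 1 to 4 between the layers at E9.5 (1 without mesoderm E9.5 replicate 1). It ran from 0 to 3 in ectoderm from E9.5 to E12.5 (0 without any of the 4 libraries compared), from 0 to 1 from E9.5 to E10.5, and from 0 to 1 from E11.5 to E12.5 (1 without ectoderm E11.5 replicate 2). In mesoderm it ran from 2 to 4 from E9.5 to E10.5 (2 without E9.5 replicate 2 or E10.5 replicate 1), from 0 to 1 over each later step, and from 1 to 3 from E10.5 to E12.5. For the layer difference in the change from E9.5 to E10.5 it ran from 1 to 4. The values of single genes that turned sign were Irx1 between the layers at E11.5 (-1.4 to 3.63), Irx2 in ectoderm from E9.5 to E12.5 (-0.02 to 0.43) and from E11.5 to E12.5 (-0.42 to 0.37), Irx5 in ectoderm from E9.5 to E12.5 (-0.41 to 0.09) and Irx3 in ectoderm from E10.5 to E11.5 (-0.67 to 0.32). In mesoderm they were Irx2 from E9.5 to E12.5 (-0.34 to 0.69), Irx3 (-1.58 to 0.21), Irx4 (-1.29 to 0.59) and Irx5 (-4.79 to 3.03) from E10.5 to E11.5, Irx3 from E10.5 to E12.5 (-0.08 to 1.91), and Irx2 in the layer difference between E9.5 and E12.5 (-0.5 to 0.53). None of these was called except Irx1 at 3.63 (adjusted p = 0.00456, without mesoderm E11.5 replicate 1), and the cause was not tested.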
